A study of Mus musculus with 2 samples.

Results

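Pericytes are the cells that sit on the outside of capillaries, and the 247 cells described here were those in which pericyte genes were read and the main genes of endothelial cells, leukocytes and fibro-adipogenic progenitors (FAPs) were not. A cell was counted when at least 2 of Kcnj8, Abcc9, Notch3, Higd1b and Cspg4 and also Rgs5 were detected, and when Cdh5, Pecam1, Ptprc and Pdgfra were all at 0. Of 13432 cells in the study, 112 of 6354 in the library labelled WT and 135 of 7078 in the one labelled KO met this rule. The cells were thus chosen by their own measured UMIs of these 10 genes, so the levels of those genes describe how the cells were chosen and are not findings.

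The cells came from gastrocnemius muscle of male C57BL/6J mice that had been injured with cardiotoxin (CTX), a snake venom toxin that kills muscle fibers, and the tissue was taken at D14 after the injury. The WT group had intact Gsdme, and the KO group lacked GSDME, a pore-forming protein of pyroptotic cell death, in the whole body. Muscle was minced and digested with enzymes, and single cells were captured in droplets and read from the 5′ end of each RNA with molecular identifiers (UMIs). There was 1 library per genotype, several mice entered each group, and whether their cells were pooled is not given in the sources used here. No test between genotypes was therefore possible, and every ratio below compares 2 libraries. Intervals are 95% intervals, exact except for the difference of shares, and cover counting error only.

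Pericytes share a basement membrane with the endothelial cells of small vessels, receive PDGF-B through the receptor PDGFRβ, and receive Notch signals through Notch3. Kcnj8 and Abcc9 encode the pore and the regulatory subunit of an ATP-sensitive potassium channel that sets the resting potential of mural cells, and Rgs5 encodes a brake on signaling through G protein-coupled receptors. Mural cells of larger vessels, the smooth muscle cells, share many of these genes and carry more of the contractile proteins.

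On the mouse genome build GRCm38, Rgs5 lies on the plus strand of chr1:169655501-169695813. Kcnj8 (chr6:142564837-142571614) and Abcc9 (chr6:142587862-142702315) are neighbors on the minus strand, 16247 bases apart. The bases just upstream of these 3 genes are shown because the genes anchor the rule and because the products of Kcnj8 and Abcc9 act in 1 channel. They are RefSeq promoter sequences (GRCm38.p6), written 5′ to 3′ on the strand of the gene, without bases that lie in an annotated transcript. Capitals mark the letters TGGGAA, the core recognized by RBPJ, the DNA-binding partner of Notch.
Rgs5, plus strand, chr1:169655251-169655500: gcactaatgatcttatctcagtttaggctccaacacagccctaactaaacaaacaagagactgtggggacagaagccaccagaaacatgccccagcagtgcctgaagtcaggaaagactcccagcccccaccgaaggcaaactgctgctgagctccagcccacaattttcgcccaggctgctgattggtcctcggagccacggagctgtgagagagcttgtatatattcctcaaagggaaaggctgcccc
Kcnj8, minus strand, chr6:142571615-142571864: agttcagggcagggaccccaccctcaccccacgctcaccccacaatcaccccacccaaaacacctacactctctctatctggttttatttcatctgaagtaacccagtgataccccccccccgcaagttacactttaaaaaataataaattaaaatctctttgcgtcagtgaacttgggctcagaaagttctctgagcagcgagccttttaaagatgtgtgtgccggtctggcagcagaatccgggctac
Abcc9, minus strand, chr6:142702316-142702524: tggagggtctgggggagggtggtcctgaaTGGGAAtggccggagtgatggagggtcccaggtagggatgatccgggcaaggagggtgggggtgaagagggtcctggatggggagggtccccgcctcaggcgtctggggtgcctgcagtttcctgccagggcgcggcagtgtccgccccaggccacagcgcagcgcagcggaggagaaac
In the 250 bases before each RefSeq start, TGGGAA was found once for Abcc9, 221 bases upstream of a start that lies inside a longer annotated transcript, and not before Kcnj8 or Rgs5 on either strand. Before Acta2, the smooth muscle actin gene, it was found once, 27 bases upstream of a start that likewise lies inside a longer annotated transcript. Of the 32851 promoters in the table, 21.6% held TGGGAA on either strand within the same 250 bases. The strict CArG box, the site of serum response factor, was found before none of these 4 genes, and 1.47% of all promoters held it. These are matches of letters and not shown to be bound. Promoters of Tagln, Myh11 and Heyl were not analysed here.

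The pericytes made up 1.76% of cells in the library labelled WT (95% interval, 1.45% to 2.12%) and 1.91% in the one labelled KO (1.60% to 2.25%). The difference, KO minus WT, was 0.145 percentage points, with an interval from −0.315 to 0.600. By this rule the shares thus did not differ beyond counting error. With at least 3 mural genes required they were 1.15% (73 cells) and 1.61% (114 cells), and the interval of their difference of 0.462 points, from 0.0645 to 0.859, left out 0.

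The pericytes were shallow cells. They held a median of 2129.5 UMIs (range, 513 to 11692) in WT and 1813 (476 to 14551) in KO, against 5830.5 and 6086 over all other cells. Their summed UMIs were 310986 and 333635. In all, 23 and 25 of them had under 1000 UMIs. The libraries shared 4 barcodes, none of them in these cells, and a doublet caller (Scrublet) marked none of them.

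Most cells with the mural genes were not free of endothelial RNA. Of 523 cells (WT) and 616 cells (KO) with Rgs5 and at least 2 of the mural genes, 401 and 460 also had Cdh5 or Pecam1. The droplets that carried both programs and lacked Ptprc and Pdgfra, 356 and 426 in number, held a median of 12637 and 11552.5 UMIs, well above the pericytes. Just outside the rule stood 20 and 12 cells with exactly 1 UMI of Cdh5 and Pecam1 together, at a median of 2341 and 1866.5 UMIs. In those cells the 17 other mural genes summed to 8433 and 7115 UMIs per 1000000 UMIs of the same cells (CPM), and the 25 other endothelial genes to 5941 and 4142 CPM. Also outside were 59 and 66 cells with Rgs5 and exactly 1 mural gene, where the other mural genes summed to 1307 and 1314 CPM. Pericytes with exactly 2 mural genes, just inside the rule, had 5263 and 6637 CPM of them.

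The libraries differed in how far inside the rule their cells stood. Exactly 2 mural genes were detected in 39 of 112 pericytes labelled WT (34.8%, 26.1% to 44.4%) and in 21 of 135 labelled KO (15.6%, 9.89% to 22.8%). All 5 were detected in 25 and 40 cells. Rgs5 ranged from 1 to 237 UMIs per cell (median, 30.5) in WT and from 2 to 259 (median, 42) in KO. Kcnj8 was detected in 61.6% and 80% of pericytes, Abcc9 in 83.0% and 91.1%, and Higd1b in 61.6% and 61.5%. The part of this difference in the ratios below was not tested, and each count and list was recomputed with at least 3 mural genes required.

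Levels of 17 mural genes that the rule did not use were set beside those in other cell groups. Pdgfrb, the PDGF-B receptor, stood at 1032 CPM in pericytes labelled WT and 1466 in those labelled KO, against 8.0 and 3.73 in endothelial cells and 121 and 114 in FAPs. Vtn, which encodes the matrix protein vitronectin and is among the genes that separate pericytes from other cells, stood at 1707 and 1466 CPM, against 6.22 and 5.60 in endothelial cells. Both genes were thus far above the other cell groups in both libraries. Of the 14 other mural genes with enough UMIs, 13 were at least 2-fold higher than in endothelial cells in both libraries, where 11.1% of 4505 genes were. Their median log2 ratio was 6.68 in WT and 7.60 in KO, beside 0.03 and −0.05 over all genes. Against FAPs, all 14 of the 14 kept were at least 2-fold higher in both (all genes, 14.4% of 4198), with a median of 5.04 and 4.80. Of those not kept, Tbx18 stood 1.09 and 0.88 log2 units above FAPs, P2ry14 1.11 and 1.72, and Colec11 6.14 and 7.58. The endothelial cells and FAPs were chosen without Rgs5 and with fewer than 2 of the rule's mural genes, so these differences follow in part from that choice. Genes low in those groups could also be kept, such as Cox4i2 with 16 and 16 UMIs in FAPs. Ndufa4l2 and Cox4i2, which encode isoforms of respiratory-chain subunits, stood at 1003 and 1007 CPM and at 418 and 507 CPM. In both libraries, most other mural genes thus stood higher than in cells chosen to have few mural genes. The rule does not part pericytes from smooth muscle cells. Myh11 (smooth muscle myosin) was read in 44 of the 112 cells and 55 of the 135.

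**Figure D1:**
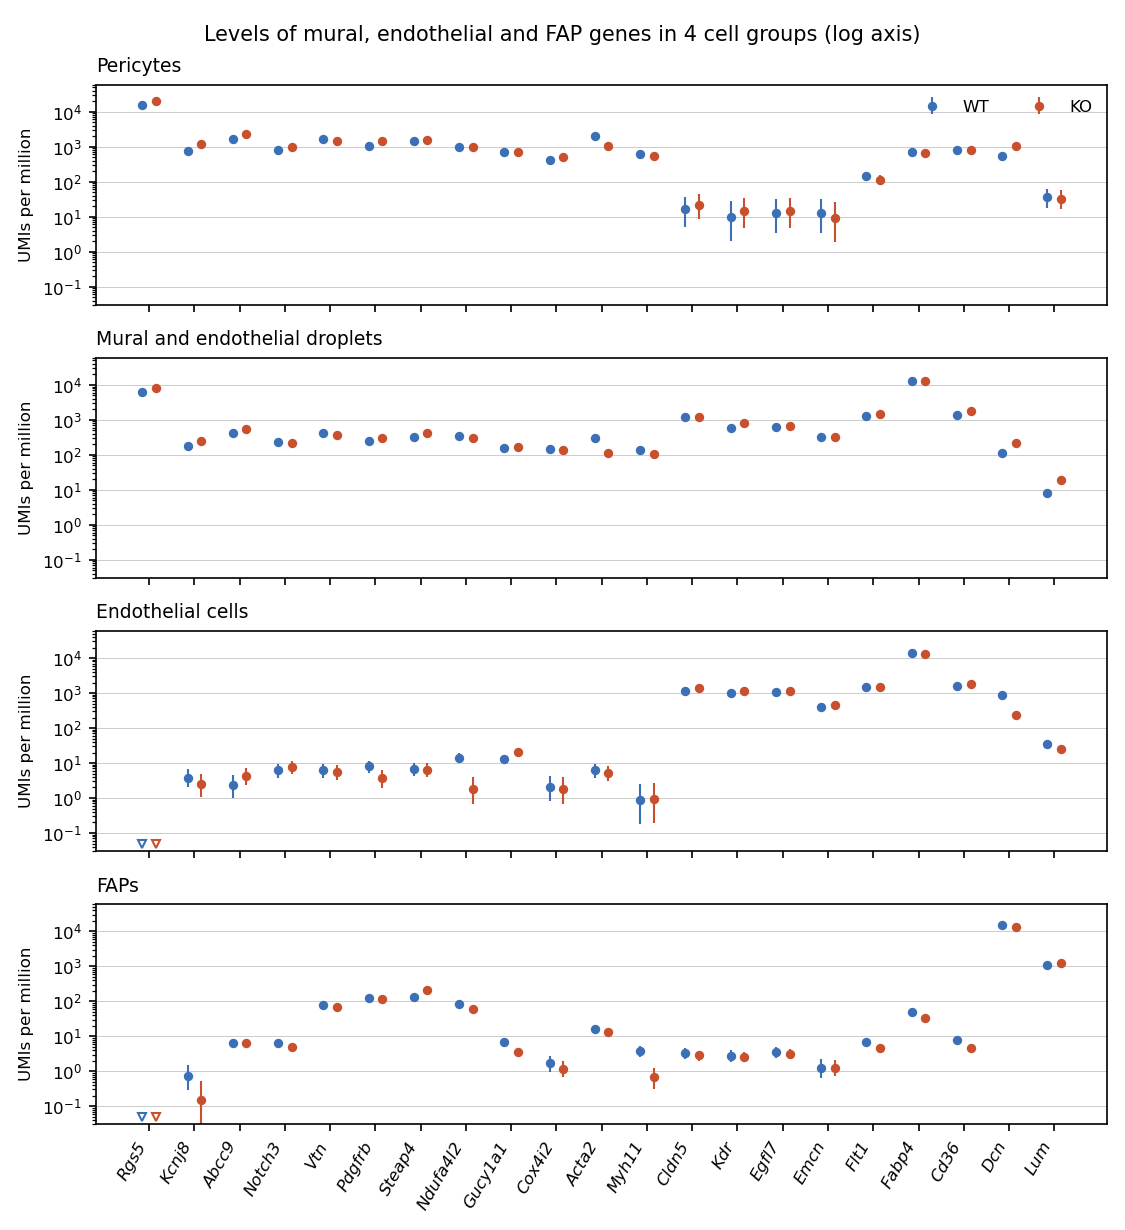
UMIs per 1000000 (log axis) of 12 mural genes, 7 endothelial genes and 2 FAP genes in pericytes, mural and endothelial droplets, endothelial cells and FAPs, for the libraries labelled WT (blue) and KO (red). Points are summed UMIs with exact Poisson 95% intervals, and open triangles at the foot mark genes with no UMI; Vtn stood at 1707 and 1466 in pericytes and at 6.22 and 5.60 in endothelial cells, while Cldn5 stood at 16.1 and 21.0 in pericytes and above 1100 in endothelial cells.

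The rule asked for only Cdh5 and Pecam1 to be at 0, and 25 other endothelial genes showed how free of endothelial RNA the cells were. Summed, they stood at 1926 CPM (WT) and 1918 CPM (KO), or 6.68% (6.15% to 7.23%) and 6.63% (6.13% to 7.16%) of their level in endothelial cells. In FAPs the sum came to 2.50% and 2.73%, but these are no clean background, since Ly6c1 stood there at 37.0% and 48.0% of its endothelial level and Tek at 36.1% and 32.5%. The median gene stood at 1.84% and 2.56% of its endothelial level in pericytes, and at 0.382% and 0.264% in FAPs. By the median gene, endothelial RNA was thus low in pericytes and above its level in FAPs.

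A few endothelial genes accounted for much of the sum. Cd36, a fatty acid transporter, stood at 801 CPM in pericytes labelled WT and 782 in those labelled KO, against 1549 and 1846 in endothelial cells, which makes 51.7% and 42.4%. It was read in 83 of 112 and 98 of 135 pericytes, and after thinning to 1000 UMIs in 52.8% and 48.2% of those deep enough. In FAPs the thinned share was 1.07% and 0.466%. Without Cd36, the other 24 genes came to 4.12% and 4.19% of their endothelial level. Cldn5, a tight junction gene, in contrast stood at 1.38% and 1.52% of its endothelial level, and Kdr (VEGF receptor 2) at 0.986% and 1.34%. Fabp4, a fatty acid carrier, was at 5.04% and 4.99%, Flt1 (VEGF receptor 1) at 9.26% and 7.51%, and Eng (endoglin) at 14.5% and 17.7%, where FAPs had 16.0% and 15.6%. Sox18, Robo4, Plvap and Clec14a had no UMI in pericytes labelled WT, which allows up to 9.65 CPM (3 UMIs), and had 1, 3, 2 and 0 UMIs in those labelled KO.

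RNA of other cell types was spread thinly over most pericytes and concentrated in a few. In 6 cells, more than 5% of UMIs came from the markers of 1 other type. In the library labelled KO, 3 cells held hemoglobin and other red cell RNA at 33.4%, 60.9% and 70.0% of their UMIs, and 1 cell held FAP genes at 6.12%. In the library labelled WT, 1 cell held immune genes at 5.04% and 1 held FAP genes at 8.13%. The last of these had 1 UMI of Rgs5. The largest red cell share belonged to a cell of 3445 UMIs, and the cell with 60.9% had 12804. Muscle fiber RNA, from 13 marker genes, was low in every cell (up to 0.768% and 0.758%) and summed to 341 CPM in WT and 608 in KO. The 5 marker genes of muscle satellite cells had no UMI in 108 of 112 and 133 of 135 pericytes. In each library 1 cell held 17 of their 29 UMIs (WT) and 9 of 12 (KO). These genes reached at most 0.188% and 0.136% of a cell's UMIs. Such cells thus stayed under the 5% limit and remain in the values without the 6 cells. FAP marker genes summed to 5595 and 6438 CPM, with a median of 0.368% and 0.322% of a cell's UMIs, so most pericytes held a little of them.

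**Figure D2:**
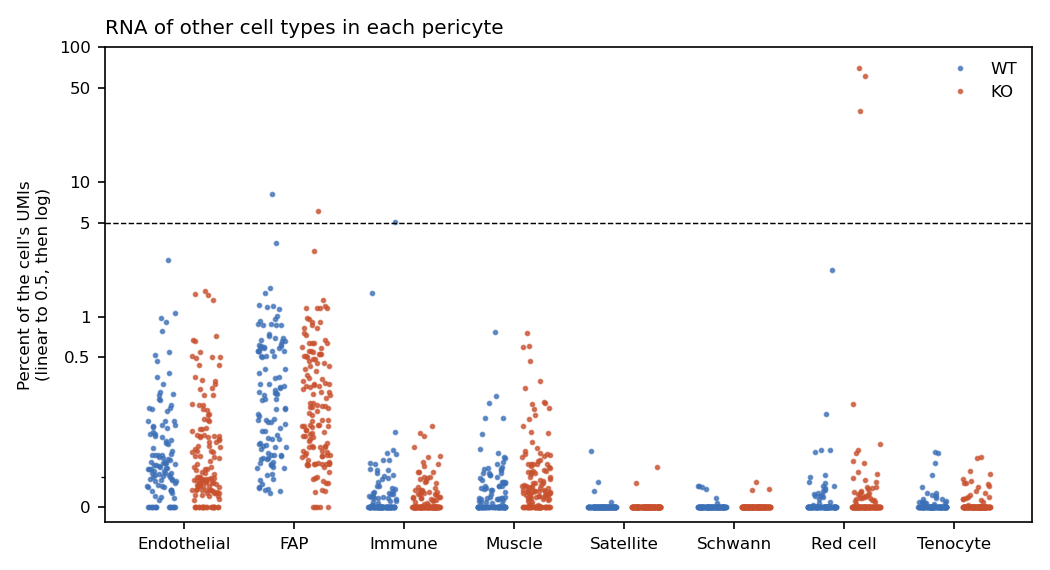
Percent of each pericyte's UMIs (linear to 0.5, then log) from 8 lists of marker genes of other cell types, for the libraries labelled WT (blue) and KO (red). Each point is a cell and the dashed line marks 5%; the 6 cells above it are 3 with red cell RNA and 1 with FAP RNA in KO, and 1 with immune and 1 with FAP RNA in WT.

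The genes with the largest ratios of pericytes over all other cells, leaving out the rule's own genes, included channels, contractile genes and a nitric oxide receptor. Genes were ranked by the smaller of the libraries' log2 ratios over all other cells. Casq2, which binds calcium in the sarcoplasmic reticulum, stood at 357 and 525 CPM against 13.6 and 19.3. Gucy1a1 and Gucy1b1, the subunits of the guanylate cyclase that nitric oxide activates, stood at 714 and 704 CPM and at 428 and 653 CPM, each more than 4 log2 units above the other cells. These 3 genes were among the first 10. Also among the first 20 were Myh11, Ano1 (a chloride channel opened by calcium), Rgs4, Ednra (an endothelin receptor), Cacna1c (the L-type calcium channel pore), Itga7 (a laminin receptor subunit), Kcne4 (a potassium channel subunit), Acta2 and Olfr558, an olfactory receptor gene read at 174 and 252 CPM. The other cells include the droplets that hold pericyte RNA, which lowers these ratios.

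The droplets with both mural and endothelial RNA differed from the pericytes in the rule only by Cdh5 or Pecam1. Endothelial RNA in a droplet lowers the CPM of its mural genes, and its part in these ratios was not tested. Against these droplets, 13 of 14 other mural genes were at least 2-fold higher in the pericytes in both libraries (all genes, 10.3% of 4360), with a median log2 ratio of 2.04 in WT and 2.04 in KO. Of 15 contractile genes 12 were, and of 11 genes of vasoactive signaling 11 were. Of the 22 endothelial genes kept, 21 were at least 2-fold lower in both, beside 8.76% of all genes. The droplets were chosen by endothelial genes, so this follows from the rule. Of 24 interferon genes, 15 were lower and none higher. Against endothelial cells 14 of 23 were at least 2-fold lower in both libraries, and against FAPs 1 of 16, beside 12.3% and 9.74% of all genes. Of 17 basement membrane genes only 2 were higher and none lower; Col4a1, a chain of collagen IV, stood at 2855 and 2701 CPM in pericytes and at 3325 and 3598 CPM in the droplets.

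Genes of fibrillar matrix separated the pericytes from FAPs. Of 22 such genes, 18 were at least 2-fold lower in pericytes than in FAPs in both libraries, beside 9.74% of all genes, with a median log2 ratio of −2.20 in WT and −2.69 in KO. Col1a1 stood at 791 and 623 CPM in pericytes, against 13115 and 10143 CPM in FAPs. Timp3, an inhibitor of matrix proteases bound to the matrix, went the other way, 2.51 and 2.14 log2 units above FAPs. Dcn, which FAPs carry at 14787 and 13162 CPM, stood at 543 and 1067 CPM in pericytes, and 1 cell in each library gave 51.5% and 85.1% of its UMIs.

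By summed UMIs, interleukin 6 RNA was higher in the pericytes of both libraries than in the other groups given here. Il6 stood at 862 CPM (762 to 971) in pericytes labelled WT and 980 (877 to 1092) in those labelled KO. In FAPs it stood at 161 and 585 CPM, in endothelial cells at 37.9 and 80.8, and in the mural and endothelial droplets at 197 and 301. By CPM the pericytes were therefore highest of these groups in each library, by 2.42 and 0.74 log2 units over FAPs. Il6 was read in 31 of 112 and 36 of 135 pericytes. After thinning, 25.8% and 22.7% of pericytes had it, against 2.58% and 6.60% of endothelial cells, whose median depths were 3476 and 3132.5 UMIs, and 11.6% and 30.2% of FAPs. In the library labelled KO, more FAPs than pericytes thus had a UMI at equal depth, against the order of the CPM, and 1 pericyte held 22.9% of the Il6 UMIs. The log2 ratio of KO over WT was 0.19 (−0.05 to 0.42) in pericytes and 1.86 in FAPs. Whether these ratios differ was not tested, as there was 1 library of each.

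The comparison of the libraries asks how pericytes of Gsdme-deficient muscle differ from those of WT muscle. Gsdme itself did not tell the libraries apart and could not check the labels. Over all cells it had 225 UMIs, or 5.03 CPM (4.39 to 5.73), in the library labelled WT and 237 UMIs, or 4.65 CPM (4.08 to 5.29), in the one labelled KO, and in pericytes it had 4 UMIs and 1. Reads outside a deleted part of the gene would not show its loss, but where the reads lie was not tested. Every direction below thus rests on the labels.

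Of 2407 genes with at least 50 UMIs in pericytes over both libraries, 54 (2.24%) were at least 2-fold higher and 97 (4.03%) at least 2-fold lower in the library labelled KO. The median log2 ratio over these genes was −0.10. Without the 6 cells that held RNA of another type, 60 of 2274 genes (2.64%) were higher and 86 (3.78%) lower, the median was −0.06, and 10.2% and 15.3% of genes had an interval above and below 0. The most extreme genes came from those 6 cells. Hbb-bt, Hbb-bs, Hba-a1 and Hba-a2, the hemoglobin chains, had log2 ratios of 9.43, 7.78, 7.70 and 7.26, and without these cells 0.56, 0.37, −1.03 and −1.17, each with an interval that included 0. Cd74, Lyz2, Apoe and H2-Aa, genes of macrophages and of antigen presentation, had −3.78, −3.47, −3.09 and −2.82. Without these cells the values were −0.33, 0.61, −0.03 and −0.22, again with intervals that included 0. In the library labelled WT, 1 cell gave between 82.6% and 93.8% of their UMIs.

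Most other genes at the ends of the order did not rest on those cells. Hspa1b, an inducible heat shock protein of the HSP70 family, had 403 UMIs (1296 CPM) in pericytes labelled WT and 1552 (4652 CPM) in those labelled KO, a log2 ratio of 1.84 (1.68 to 2.01) and 1.96 without the 6 cells. Zfp36, which encodes a protein that destabilizes cytokine mRNAs, had 182 and 583 UMIs, a log2 ratio of 1.58 (1.34 to 1.83) and 1.77 without the 6 cells. Cxcl1, a neutrophil chemokine, had 201 and 642 UMIs and a log2 ratio of 1.57 (1.34 to 1.81). Without the 6 cells Cxcl1 had 196 and 510 UMIs and a ratio of 1.35. Bcr, a GTPase regulator, had 63 and 177 UMIs and 1.39 (0.97 to 1.83), and 1.45 without the 6 cells. These 4 genes were higher in the library labelled KO beyond counting error. Hspa1b and Hspa1a are near-identical copies, as are the hemoglobin genes within each pair, so the split of reads between copies is uncertain. Cxcl10, a chemokine that interferons induce, and Ccl7, a monocyte chemokine, ranked with them at 2.36 and 1.74, but 1 cell labelled KO gave 69.6% and 70.9% of their UMIs. Without the cell with most of their UMIs in each library, their ratios were 1.12 and 0.94, and without the 6 cells they were 2.34 and 2.76.

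At the low end stood Cebpb, a transcription factor of acute-phase and adipogenic genes, with 640 UMIs (2058 CPM) in pericytes labelled WT and 135 (405 CPM) in those labelled KO, a log2 ratio of −2.35 (−2.63 to −2.08). It was read in 67 of 112 and 50 of 135 pericytes. Cryab, a small heat shock protein, had 289 and 86 UMIs and a ratio of −1.85 (−2.21 to −1.50). Both were lower in the library labelled KO beyond counting error, and no single cell held more than 23.9% of their UMIs. Procr, the receptor of protein C, had 404 and 164 UMIs (−1.40, −1.67 to −1.14). Elf1, a transcription factor, had 129 and 49 (−1.50), and Taf1d, a subunit of the RNA polymerase I initiation complex, 83 and 29 (−1.62). Ifi27l2a, an interferon-induced gene, had a ratio of −1.69, and −1.21 without the 6 cells. The ratio of Cebpb was also below 0 in the mural and endothelial droplets (−2.33), endothelial cells (−1.85) and FAPs (−1.53), whereas Elf1 stood at −0.10, −0.14 and −0.09 there and Taf1d at −0.03, −0.04 and −0.42. The differences between these groups were not tested.

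**Figure D3:**
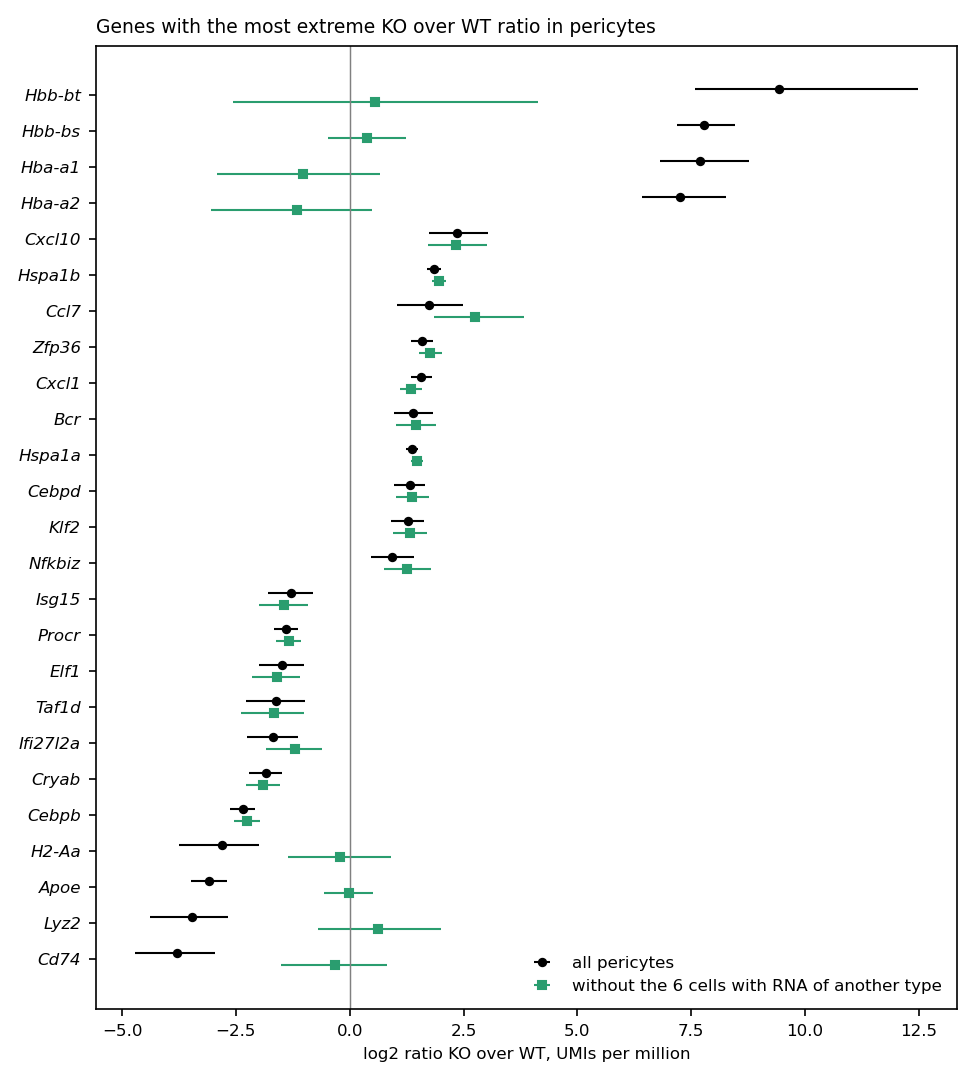
Log2 ratio of KO over WT, from UMIs per 1000000 summed over pericytes, for 25 genes at the ends of the order, with all 247 cells (black circles) and without the 6 cells that held RNA of another type (green squares). Bars are exact 95% counting intervals; the hemoglobin genes, Cd74, Lyz2, Apoe and H2-Aa moved to intervals that include 0, while Hspa1b (1.84 and 1.96) and Cebpb (−2.35 and −2.25) did not.

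By role, the mural genes that the rule did not use leaned to the library labelled KO. Of 14 kept, 11 had a ratio above 0 and 6 had an interval above 0, beside 9.60% of all genes. The median log2 ratio was 0.32, and 0.18 with at least 3 mural genes required. Rgs4, a relative of Rgs5, stood at 498 CPM in WT and 983 in KO, a ratio of 0.98 (0.70 to 1.27), and was read in 46 of 112 and 92 of 135 pericytes. Pdgfrb stood at 1032 and 1466 CPM (0.51, 0.30 to 0.71). Both genes were higher beyond counting error. Vtn was the exception with an interval below 0, at 1707 and 1466 CPM (−0.22, −0.40 to −0.04). Gucy1a1 (−0.02) and Ndufa4l2 (0.01) were nearly even. Among the rule's own genes, given as a description, the ratios were 0.66 for Kcnj8, 0.53 for Abcc9, 0.44 for Rgs5, 0.29 for Notch3, 0.15 for Higd1b and −0.10 for Cspg4. All of these stand beside the larger share of cells labelled WT that had only 2 mural genes.

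Contractile genes leaned the other way. Of 14 kept, 8 had an interval below 0 and none an interval above 0, beside 17.1% of all genes with an interval below 0. The median log2 ratio was −0.60. Acta2 had 610 UMIs (1962 CPM) in WT and 349 (1046 CPM) in KO, a ratio of −0.91 (−1.10 to −0.71). Tagln, the actin-binding protein transgelin, had 522 and 233 UMIs (−1.27, −1.49 to −1.04), Tpm2, a tropomyosin, 324 and 211 (−0.72, −0.98 to −0.47), and Myl9, a myosin light chain, 339 and 234 (−0.64, −0.88 to −0.39). Myh11, in contrast, had 190 and 180 UMIs (−0.18, −0.48 to 0.12), and Cald1 (caldesmon) 493 and 548 (0.05, −0.13 to 0.23). Acta2 was read in 54 of 112 pericytes (48.2%) and 39 of 135 (28.9%), and after thinning in 37.1% and 24.5%. Endothelial cells had 0.646% and 0.169% after thinning.

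The contractile ratio depended on which cells were counted. The contractile list took a median of 0.586% of a cell's UMIs in WT and 0.506% in KO, and up to 5.81% and 5.12%. The top cell held 19.3% and 14.5% of the list's UMIs, and 23.4% and 24.6% of those of Acta2. Without cells in which Myh11 was detected, which left 68 and 80, the median ratio of the list was −0.14. It was −0.28 with Rgs5 not required and −0.73 with at least 3 mural genes, and when every cell was thinned to 1000 UMIs before the rule it was −0.07. In the mural and endothelial droplets it was −0.37, with Acta2 at −1.38 and Tagln at −0.67. In FAPs and endothelial cells, where these genes were low, it was −0.02 and 0.02.

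Receptors and channels were mixed. Ednrb, an endothelin receptor, stood at 1241 CPM in WT and 620 in KO, a ratio of −1.0 (−1.25 to −0.75), while Ednra, the other one, stood at 161 and 237 CPM (0.56, 0.03 to 1.10). The 2 endothelin receptors thus had ratios of opposite sign. Of 10 vasoactive genes kept, 3 had an interval above 0 and 1 below it, beside 9.60% and 17.1% of all genes kept, and the median was 0.08. Gucy1b1 was at 0.61 (0.29 to 0.93). Of the ion channel genes, Ano1 stood at 264 and 429 CPM (0.70, 0.30 to 1.11). Cacna1c (0.14) and Kcne4 (−0.18) had intervals that included 0.

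Matrix genes were nearly even between the libraries. The median log2 ratio was −0.0023 for 14 basement membrane genes and −0.01 for 18 fibrillar matrix genes. Sparc, a collagen-binding matrix protein, stood at 4232 and 4679 CPM (0.14, 0.04 to 0.25) and Col4a1 at 2855 and 2701 CPM (−0.08, −0.22 to 0.05). In endothelial cells the fibrillar list had a median of −0.57, with Col1a1 at 1357 CPM in WT and 156 in KO. Eln (elastin) had 81 and 117 UMIs in pericytes, of which 1 cell held 45.7% and 61.5%, and a ratio of 0.43 that became −0.06 without the top cell of each library.

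In the Notch pathway, Heyl, a Notch target of mural cells, stood at 187 and 240 CPM (0.36, −0.14 to 0.88) and Hes1, a target in many cells, at 296 and 510 CPM (0.78, 0.41 to 1.17). Jag1, a Notch ligand, stood at 219 and 327 CPM (0.58, 0.13 to 1.04). Hes1 and Jag1 were higher in the library labelled KO beyond counting error, and the median of the 6 genes kept was 0.25. Of the signals exchanged with endothelium, Cxcl12, a chemokine that retains blood progenitors and leukocytes, stood at 1161 and 1460 CPM (0.33, 0.13 to 0.53). Tgfb3 had 67 and 33 UMIs (−1.12, −1.77 to −0.50). The median of 13 such genes was 0.09.

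Immediate-early and heat shock genes were higher in the library labelled KO in most cases. Of 30, all kept, 20 had an interval above 0 and 3 below it, the median log2 ratio was 0.64, and 7 were at least 2-fold higher. Over all genes kept, these shares were 9.60%, 17.1% and 2.24%. Without the 6 cells with RNA of another type, 11 of the 30 were at least 2-fold higher, beside 2.64% of all genes. Egr1 stood at 1962 and 3995 CPM (1.03, 0.89 to 1.17), Fos at 2087 and 3911 CPM (0.91), Btg2 at 852 and 1918 CPM (1.17) and Klf2 at 289 and 698 CPM (1.27). Hspa1a stood at 1994 and 5143 CPM (1.37). Nr4a2, a nuclear receptor of the same early class, went the other way, at 894 and 354 CPM (−1.34, −1.66 to −1.02), as did Nr4a3 (−0.52) and Klf4 (−0.50). This list holds genes that cells switch on within minutes of many kinds of stress or stimulus. The part of the muscle RNA that also differed between the libraries was not tested. The same list had a median of 0.35 in the mural and endothelial droplets, 0.25 in endothelial cells and 0.42 in FAPs, so the higher values were not confined to pericytes. Hspa1b was at 1.36, 0.70 and 2.08 in these groups.

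Pericytes varied widely in the share of UMIs from these early genes. It ranged from 0.204% to 14.9% (median, 3.19%) in WT and from 0.0591% to 21.8% (median, 4.84%) in KO. In the library labelled KO, 46 of 135 pericytes were below 1% and 36 above 10%, and in the library labelled WT 26 of 112 were below 1% and 5 above 10%. The KO cells thus had more at the high end and also a larger group at the low end. The median depth of the cells below 1% was 1765 and 1471.5 UMIs, and of those above 10% 3415 and 2066.5.

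**Figure D4:**
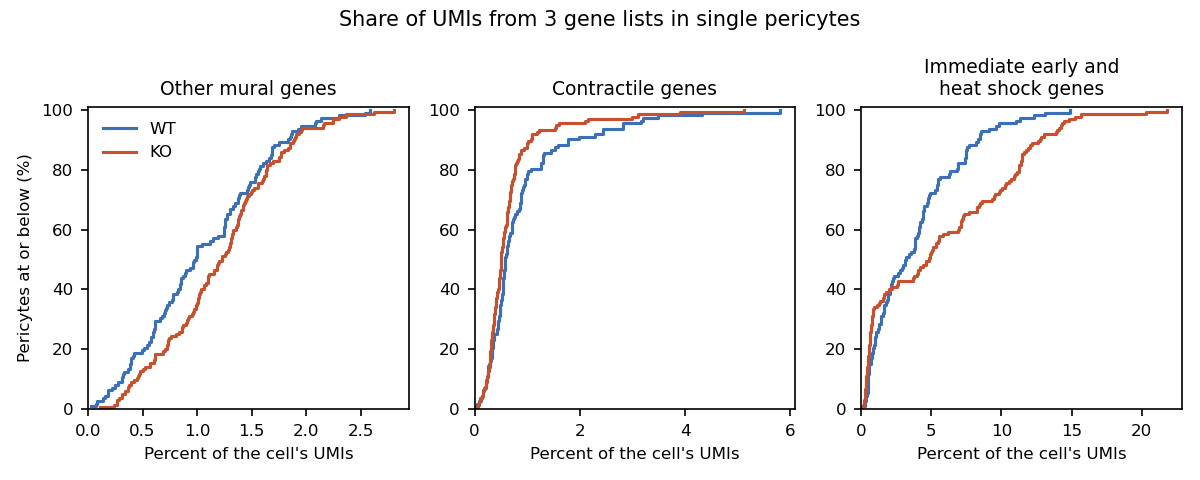
Cumulative share of pericytes (percent) at or below a given percent of the cell's UMIs from 17 other mural genes, 19 contractile genes and 30 immediate-early and heat shock genes, for WT (blue, 112 cells) and KO (red, 135 cells). The contractile curves part mainly in the upper tail, at medians of 0.586% and 0.506%, and the early gene curves part at the high end, where 5 and 36 cells exceeded 10%.

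Among inflammatory genes, 7 of 13 kept had an interval above 0 and 1, Il1r1, below it, beside 9.60% and 17.1% of all genes kept. The median log2 ratio was 0.41. Beside Cxcl1, Nfkbiz, a regulator of NF-κB targets, stood at 187 and 357 CPM (0.94, 0.47 to 1.41) and Nfkbia, the NF-κB inhibitor, at 412 and 546 CPM (0.41, 0.07 to 0.74). Il1r1, the interleukin 1 receptor, stood at 273 and 123 CPM (−1.15, −1.73 to −0.60). Ccl2, a monocyte chemokine, stood at 646 and 728 CPM (0.17, −0.10 to 0.45) and did not differ beyond counting error. Ccl11, which attracts eosinophils, stood at 450 and 704 CPM, with 1 cell holding 43.6% and 29.4% of its UMIs.

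Interferon genes were lower in the library labelled KO in most cases. Of 9 kept, 5 had an interval below 0, Irf1 alone had one above 0, and the median was −0.53. Over all genes kept, 17.1% had an interval below 0 and 9.60% above it. Isg15, a ubiquitin-like protein, stood at 367 and 150 CPM (−1.29, −1.80 to −0.80), and its ratio was −1.39, −1.50 and −1.71 in the mural and endothelial droplets, endothelial cells and FAPs. H2-K1, a chain of MHC class I, stood at 457 and 285 CPM (−0.68, −1.07 to −0.30). Irf1 stood at 251 and 450 CPM (0.84, 0.44 to 1.26). The median did not hold when Rgs5 was not required, at 0.03, or when every cell was thinned before the rule, at −0.01.

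Cebpd, listed with the glucocorticoid response genes, stood at 325 and 806 CPM (1.31, 0.98 to 1.66), so that 2 transcription factors of 1 family, Cebpb and Cebpd, had ratios of opposite sign. Txnip, an inhibitor of thioredoxin, stood at 444 and 947 CPM (1.09, 0.80 to 1.39). The median of the 7 genes kept from that list was 0.48. Of 7 glycolysis and hypoxia genes, none had a ratio above 0 and 2 had an interval below 0, with Gapdh at 933 and 555 CPM (−0.75, −1.02 to −0.48) and a median of −0.34. Over all 2407 genes kept, 1025 had a ratio above 0 and 17.1% an interval below it.

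**Figure D5:**
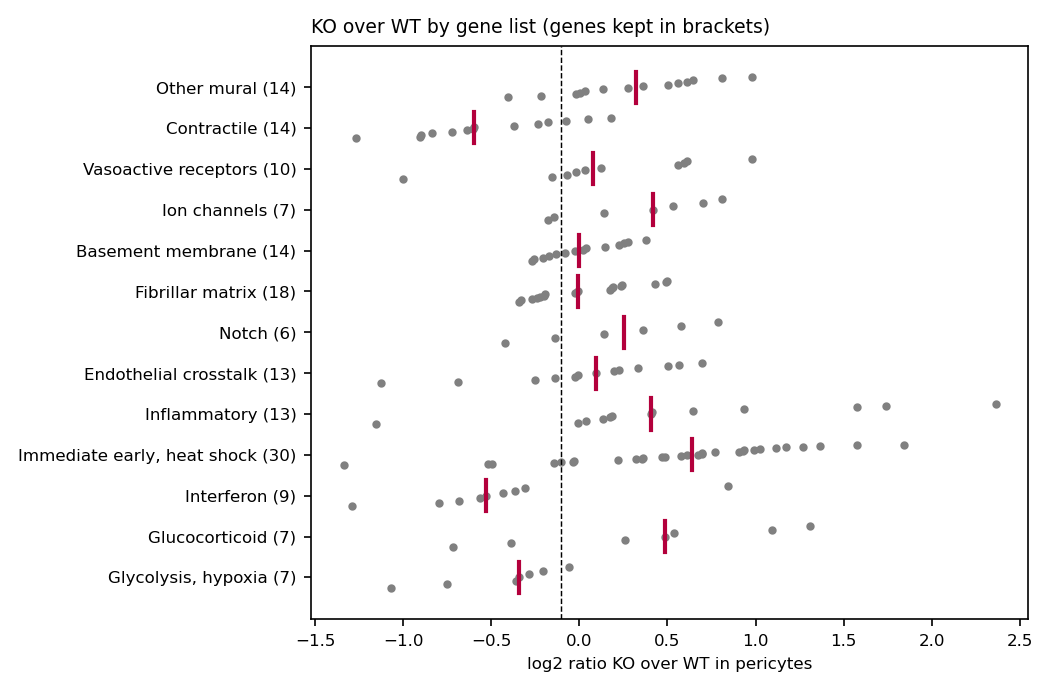
Log2 ratio of KO over WT in pericytes for the genes of 13 lists with at least 50 UMIs over both libraries (grey points, the number kept in brackets). Red bars mark each list's median, from −0.60 for contractile genes to 0.64 for immediate-early and heat shock genes, and the dashed line the median of all 2407 genes, −0.10.

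The pericytes were also ordered by the percent of UMIs from contractile genes, which cuts a range and defines no types. In the top 37 (WT) and 45 (KO) cells the list took at least 0.857% and 0.642% of UMIs, and in the bottom 37 and 45 at most 0.482% and 0.387%. The median depth was 1827 and 1584 UMIs in the top cells and 2342 and 2039 in the bottom cells. Of 1662 genes, 4.87% were at least 2-fold higher in the top cells of both libraries. Among the genes with the highest top over bottom ratio were Eln (6.12, 3.61 to 11.4, in WT and 4.63, 3.24 to 6.53, in KO, log2), Crispld2 (2.95 and 2.67), a secreted protein, Postn (3.24 and 2.41), a matrix protein of injured tissue, and Procr (2.16 and 2.35). Eln, the elastin gene, had 1 and 4 UMIs in the bottom cells and 80 and 109 in the top cells, and 1 cell held 45.7% and 61.5% of all its UMIs in pericytes. Fibrillar matrix genes had a median of 0.57 and 0.87, beside 0.05 and 0.21 over all genes. By the median, fibrillar matrix genes thus stood higher at the contractile end, but only 3 of 18 were at least 2-fold higher in both libraries. Basement membrane genes had medians of 0.12 and 0.36, with 1 of 14 at least 2-fold higher in both. Of the 6 cells with RNA of another type, the bottom cells held 5, with 2 in WT and 3 in KO, and the top cells labelled KO held 1. That cell, of 14551 UMIs, was the one with FAP genes at 6.12%, while the WT cell with FAP genes was in the bottom. FAP marker genes had a median of −0.73 in WT and 2.37 in KO. The part of these cells in the matrix medians was not tested.

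Early genes stood lower at the contractile end. Of 30, 9 were at least 2-fold lower in the top cells of both libraries and 1 higher, beside 2.05% of all 1662 genes lower in both. The list's median was −0.77 and −0.87. Egr1 was at −2.60 (−3.02 to −2.21) in WT and −1.72 (−1.93 to −1.51) in KO, Hspa1a at −1.52 and −1.49, and Hsp90aa1, a stress-induced chaperone, at −1.39 and −1.45. Runx1, a transcription factor, was at −1.50 and −1.80. Other mural genes did not follow the order, with a median of −0.14 in WT and 0.13 in KO.

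Many genes of cell division, muscle precursors and fat cells had few UMIs or none. Mki67, Birc5, Ccnb1 and Cenpf, genes of dividing cells, had no UMI in either library, which allows up to 9.65 CPM in WT and 8.99 CPM in KO. Pcna, the DNA polymerase clamp, had 96 and 70 UMIs (−0.56, −1.02 to −0.10). Adipoq and Plin1, genes of fat cells, and Pax3 had none either, and Pax7 had 4 and 4 UMIs. Lpl, a lipase of fat cells and endothelium, had 80 and 90 UMIs. Myod1 had 19 and 7 UMIs, of which 1 cell held 78.9% and 100%. Of the genes of pyroptosis and interleukin 1 release, Casp4 had 5 and 17 UMIs, Ninj1 15 and 4, and Casp1 none, too few to compare.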

How the data were processed

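Gene expression was measured in single cells of CTX-injured gastrocnemius, with 1 library for WT and 1 for KO. The values deposited by the authors are the natural log of 1 plus the UMIs of a gene per 10000 UMIs of its cell, in 1 table of 19169 genes and 13432 cells, where the barcode suffix names the library as the series' design text gives it. The submitters' processing notes name Cell Ranger 2.1.1 and build mm10; the methods name another version of Cell Ranger. The authors removed doublets with DoubletFinder and cells rich in mitochondrial RNA, and the table lists 0 mitochondrial genes. Undoing the log gave whole UMIs for all 29528482 values above 0 (largest distance from a whole number, 0.247 UMI), 44758518 in WT and 50930010 in KO, with medians of 5740 and 5962.5 per cell. The recovery was tested on simulated data. The libraries shared 4 barcodes.

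UMIs were summed over the cells of a group in each library and given per 1000000 (CPM). Intervals are Poisson for a level, Clopper-Pearson for a share and binomial for a ratio, at 95%, and the difference of shares has a Newcombe interval. They cover counting error only. With 1 library per genotype no test was made. Genes with at least 50 UMIs over both libraries were kept, and 2-fold was the limit for counts. Endothelial cells had Cdh5 and Pecam1 without Rgs5, FAPs had Pdgfra without Rgs5, Cdh5 and Pecam1, and both had fewer than 2 of the mural genes and no Ptprc. Droplets with both programs met the mural rule and had Cdh5 or Pecam1. To compare shares of cells, each cell was thinned to 1000 UMIs, which left out 23 and 25 pericytes. The genes named were the rule's genes, members of the gene lists, the 10 highest and 10 lowest ratios of KO over WT with an interval that leaves out 0, the 20 genes highest over all other cells in the lower of both libraries, and the 10 highest and 10 lowest ratios between the top and bottom of the contractile order (37 cells each in WT and 45 in KO), each among genes with at least 100 UMIs. The members and the lists were chosen with earlier results of these data known. Alternatives changed the rule, the depth, the gene minimum and the scaling, left out Scrublet calls (100 and 118 cells in all), or left out the 6 cells with RNA of another type or the cell with most UMIs of a gene; the last of these were chosen after seeing the data.

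Analyses used Python 3.11.15, numpy 2.4.6, scipy 1.17.1, pandas 2.3.3, scanpy 1.11.5 (with Scrublet) and matplotlib 3.10.9.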

Additional observations from a re-analysis of the deposited data

Results flagged for a closer look

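For 9 genes, the log2 ratio of KO over WT had an interval above 0 in pericytes and below 0 in endothelial cells or FAPs, or the reverse. In pericytes alone, 9.60% of all genes kept had an interval above 0 and 17.1% below it. The share of all genes with opposed intervals between groups is not given here, so the 9 are a list and no measure of how often signs differed. The difference between the cell groups was not tested in any of them. For 4 genes the pericyte value rested on the cells that held RNA of another type. Cd74 stood at −3.78 in pericytes and 1.83 in endothelial cells, H2-Aa at −2.82 and 1.52, and Lyz2 at −3.47 and 1.89, and without those cells the pericyte values were −0.33, −0.22 and 0.61. Dcn, a matrix proteoglycan of FAPs, stood at 0.97 in pericytes and −1.92 in endothelial cells, and at −0.64 in pericytes without those cells, so the signs were then the same.

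The other 5 genes kept their pericyte values. Cryab stood at −1.85 in pericytes and 0.78 in FAPs, and at −1.90 in pericytes without the 6 cells. Its ratio was also below 0 in endothelial cells (−0.92) and in the mural and endothelial droplets (−0.996), so the lower value was not confined to pericytes. Jag1 stood at 0.58 in pericytes and −0.50 in endothelial cells. Pdgfrb stood at 0.51 in pericytes and −1.10 (−2.22 to −0.07) in endothelial cells, where it had 27 and 12 UMIs. Mcam, an adhesion molecule of mural and endothelial cells, stood at 0.64 in pericytes and −0.89 (−1.67 to −0.12) in FAPs. In FAPs Mcam had 35 UMIs in WT and 27 in KO. Ano1 stood at 0.70 in pericytes and −1.51 (−3.06 to −0.11) in FAPs, where it had 14 and 7 UMIs. The values of Pdgfrb, Mcam and Ano1 outside pericytes thus rest on few UMIs, with intervals that end near 0. Without the 6 cells, Jag1, Pdgfrb, Mcam and Ano1 had pericyte values of 0.64, 0.52, 0.64 and 0.74.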

How the results depend on the processing

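The share of pericytes was 1.15% (WT) and 1.61% (KO) with at least 3 mural genes, 1.32% and 1.62% with Kdr, Flt1, Cldn5 and Egfl7 also at 0, 2.27% (KO) with Rgs5 not required, and 1.07% and 1.13% without cells in which Myh11 was detected. The other endothelial genes stood at 5.77% (WT) of their endothelial level with at least 3 mural genes, at 4.62% and 4.14% with Rgs5 not required, at 6.12% and 5.28% with the extra zeros, at 11.6% and 13.03% with every cell thinned before the rule, and at 7.71% (KO) without Myh11 cells. Genes at least 2-fold higher numbered 117 with Rgs5 not required, 16 with thinning, 269 with a minimum of 20 UMIs and 18 with 200. Genes lower numbered 13, 272 and 17 in the last 3 of these. The higher gene minimum leaves fewer genes and the lower one more. Summed UMIs also changed, to 503073 and 586929 with Rgs5 not required and to 86000 and 117000 with thinning. The numbers of genes kept in these settings are not given here, so the counts are not shares and cannot be set beside those of the main rule. The contractile median was −0.067 with thinning, the interferon median 0.029 with Rgs5 not required and −0.013 with thinning, and the glucocorticoid median 0.83 with thinning and 0.68 without Myh11 cells. Lyz2 stood at 0.28 without the cell with most of its UMIs. The cause of these changes was not tested. In all, 182 of the summary values moved by less than their counting interval or by under 1.5 times, as did 1543 of the values of single genes. Further moves were seen in 24 summary values and 257 values of single genes. Of each kind, 1 more value was reversed. Leaving out the 6 cells with RNA of another type and leaving out single cells were chosen after seeing the data. No paired analysis was possible because there was 1 library per genotype. At this depth, 2407 of 19169 genes had enough UMIs in pericytes to compare.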

Other observations

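Without the 6 cells that held RNA of another type, the order of the genes had new names at both ends, chosen here after their values were seen. Tnrc6b, a factor of miRNA-mediated repression, had 37 UMIs in WT and 90 in KO, a log2 ratio of 1.25 (0.69 to 1.85), and was read in 30 and 62 pericytes. Among the 10 lowest were 2 genes of the oxidative stress response. Srxn1, sulfiredoxin, had 79 and 27 UMIs (−1.58, −2.26 to −0.93), read in 17 and 15 pericytes. Hmox1, heme oxygenase, had 113 and 44 UMIs (−1.39, −1.93 to −0.87), read in 28 and 25. In FAPs the ratio was 0.54 for Srxn1 and −0.17 for Hmox1, and in endothelial cells 0.16 and −0.89. In the mural and endothelial droplets it was −0.21 and −0.52. Also among them were Fam107b (−1.41), Emp1, a membrane protein of epithelial and other cells (−1.38), and Uap1, an enzyme of amino sugar synthesis (−1.38). These values were not tested.

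Muscle fiber RNA in pericytes was higher in the library labelled KO for the 2 genes given here, chosen after their values were seen. Acta1, the actin of skeletal muscle, had 14 UMIs in WT and 51 in KO (1.76; 0.89 to 2.73) and was read in 13 and 37 pericytes. Ckm, muscle creatine kinase, had 12 and 29 UMIs (1.17; 0.16 to 2.28). The 13 muscle marker genes together had 106 and 203 UMIs, but not all of them went this way. Actn3 and Atp2a1, with few UMIs, stood lower in the library labelled KO, and Myh1 was read in WT but had no UMI in KO. In the droplets with both mural and endothelial RNA the ratio of Acta1 was −0.72, and in FAPs 0.89.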
